A study of Mus musculus with 8 samples.

Results

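The nuclear genes for the subunits of oxidative phosphorylation were compared between wild type testes and testes mutant for Vrk1, a serine/threonine kinase. The members were all non-control probes whose gene name began with Nduf, Atp5, Uqcr or Cox4 to Cox8, or was Sdha, Sdhb, Sdhc, Sdhd, Cycs or Cyct. This gave 117 of the 41174 probes on the array, with 84 of its 27962 gene names. Of these, 81 names were subunits or cytochromes c: 36 of complex I by name, 4 of complex II, 7 of complex III, 2 cytochromes c, 17 of complex IV and 15 of ATP synthase. The other 3 names fell under the rule without being subunits: Ndufaf1, an assembly factor, Cox4nb, now Emc8, a neighbour of Cox4i1, and Atp5s, now Dmac2l. Ndufa4 was counted with complex I by its name although the protein is now placed with complex IV. Each gene was described by its brightest probe among the 112 probes that passed the detection filter. The 5 that did not pass were second probes of Cox5a, Ndufab1, Ndufs1, Ndufs4 and Sdhc, so all 84 genes had a measured probe.

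Whole testicular cells were profiled on 8 one-colour arrays, each hybridised with Cy3-labelled RNA of one sample. The 4 control samples were male testis of genotype VRK1+/+ and the other 4 were male testis of genotype VRK1-/-. The labels call them biological replicates from independent experiments but do not tie them to animals, so the p-values measure the spread between these samples. The sources used here give no age, strain or type of Vrk1 mutation. All 4 wild type arrays lay on one slide with one scan and all 4 mutant arrays on another, so that genotype and slide cannot be told apart for any difference given here.

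Oxidative phosphorylation is the route by which mitochondria make most of a cell's ATP. Complexes I and II take electrons from NADH and succinate, complex III passes them to cytochrome c, complex IV hands them to oxygen, and the proton gradient built on the way drives ATP synthase. In the testis, Sertoli cells and early germ cells use the widespread isoforms of several of these proteins, while spermatocytes and spermatids carry germ cell isoforms such as cytochrome c, testis (Cyct), Cox8c and Cox6b2. Vrk1 is known to be needed for spermatogenesis.

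The probe of Vrk1, the targeted gene, was 4.78-fold lower in the mutant arrays (wild type -0.71 ± 0.16, mutant -2.97 ± 0.19, log2, SD, n = 4 each; limma adjusted p = 1.65e-04), and no array had it below the detection criterion. Levels are log2 intensities relative to the 75th percentile of the same array, so that 0 is that percentile. Between 73.2% and 77.5% of non-control features were well above background on the wild type arrays and between 83.3% and 86.5% on the mutant arrays. Markers of cell types were read under this scaling only. Their calls, at a limma adjusted p below 0.05, stand beside 21.7% higher and 12.4% lower among all genes. Of 9 Sertoli cell markers 8 were higher and none lower in the mutants, with a summed linear level, as multiples of the array's 75th percentile, of 60.0 to 93.3 in the wild type and 132 to 203 in the mutant arrays. Of 8 markers of late spermatocytes and round spermatids 6 were lower and none higher, with summed levels of 562 to 602 against 377 to 490. Ldhc was the brightest of them. The median level of these markers was 5.46 and their median difference -0.66, while all genes at levels from 4 to 6 had a median difference of -0.45. Of 6 markers of elongating spermatids 1 was lower, Prm2, and none higher (1544 to 2085 against 1281 to 1761). Of 5 Leydig cell markers 2 were higher, Hsd3b1 and Insl3 (72.0 to 131 against 139 to 239), and of 5 macrophage markers 4 were higher (6.42 to 7.43 against 9.44 to 26.7), in both lists with the highest sum in mutant 1. Of 7 epididymal markers listed 6 had a probe, and 2 passed the filter, Crisp1 and Cd52, both higher. Their summed level was 22.0, 1.09, 0.619 and 15.8 in mutants 1 to 4 against 0.210 to 0.460 in the wild type, so that mutants 1 and 4 stood apart.

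The cytochromes c and Cox8 isoforms gave the clearest opposite movements, and the first 30 bases of their 60-base probes are shown to make plain that the isoforms were read by unlike sequences. Coordinates of the whole probes are those of the array's mm7 annotation, and the letters run 5′ to 3′.
Cycs (chr6:50525306-50525365, minus strand): aatgatcttcgctggaattaagaagaaggg
Cyct (chr2:76197772-76197831, minus strand): gtatttaaaacaggccacatcctcatgaag
Cox8a (chr19:7035098-7035157, minus strand): tcatgttattcaattccagtcacctcttct
Cox8c (chr12:100395762-100395820, plus strand): gcatcatatggacgacgaacataatctgct
The longest run of bases shared by the probes of Cyct and Cycs was 5 bases, as it was for Cox8c and Cox8a.

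Cytochrome c showed both directions. Cycs, the cytochrome c of somatic and early germ cells, rose 2.03-fold in the mutant testes, and Cyct, its form in spermatocytes and spermatids, fell 1.69-fold. Cycs levels were 3.59, 3.04, 3.14 and 3.43 on wild type arrays 1 to 4 and 4.53, 3.90, 4.37 and 4.48 on mutant arrays 1 to 4. Every mutant array lay above every wild type array (log2 difference 1.02, SE 0.19, limma adjusted p = 0.00536). The other probes of Cycs gave 1.05 and 0.88, and all 3 probes passed the test. Cyct levels were 4.32, 4.22, 4.25 and 4.18 in the wild type and 3.25, 3.87, 3.81 and 3.01 in the mutants. The SD of the wild type values was 0.06, while mutants 1 and 4 were the lowest, and the groups did not overlap (-0.76, SE 0.20, adjusted p = 0.0205). The fall of Cyct did not pass the test without mutant 1 (adjusted p = 0.0586), with quantile normalization (-0.44, adjusted p = 0.10) or with cyclic loess (-0.42, adjusted p = 0.0921). In bulk RNA of whole testis, fewer cells of a type and less RNA per cell cannot be told apart.

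The same contrast was then taken within each array for 6 pairs of a restricted and a widespread isoform. A shift equal for all probes of an array cancels there, but a shift that changes with brightness does not. The level of one probe cannot be set against that of another, so only the change of their difference between genotypes is meaningful. Cyct minus Cycs was 0.73, 1.18, 1.11 and 0.74 in the wild type and -1.28, -0.03, -0.56 and -1.47 in the mutants. All mutants lay below all wild type arrays, with mutant 2 the nearest to them, and the ratio of Cyct to Cycs fell 3.43-fold (change -1.78, exact two-sided permutation p = 0.0286, adjusted over 6 pairs 0.0571). With 4 against 4 arrays there are 70 arrangements and 0.0286 is the smallest p they allow, so no pair could have passed 0.05 after adjustment unless at least 4 of the 6 had been at that limit.

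Cox8c, the testis form of the small complex IV subunit 8, and Cox8a, the widespread form, moved in the same way as the cytochromes c. Cox8c levels were 6.57, 6.71, 6.73 and 6.61 in the wild type and 5.86, 6.29, 6.11 and 5.41 in the mutants (-0.74, SE 0.19, limma adjusted p = 0.0180). Cox8a levels were 3.43, 3.25, 3.20 and 3.17 in the wild type and 4.21, 3.72, 4.13 and 3.83 in the mutants (0.71, SE 0.15, adjusted p = 0.00955). Neither gene's groups overlapped, Cox8c being below and Cox8a above on every mutant array. The ratio of Cox8c to Cox8a fell 2.72-fold, from 3.39 ± 0.17 to 1.95 ± 0.45 (log2, SD, n = 4 each; exact permutation p = 0.0286, adjusted 0.0571). The call of Cox8c was lost with quantile normalization (-0.34, adjusted p = 0.124), cyclic loess (-0.25, adjusted p = 0.201) and normexp background correction (-0.59, adjusted p = 0.0509).

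The remaining pairs differed. Cox6b2, the testis form of subunit 6b, had levels of 4.49, 5.04, 5.19 and 4.74 in the wild type and 4.24, 4.70, 4.47 and 3.89 in the mutants, and Cox6b1, the widespread form, -0.65, -0.99, -1.06 and -1.18 against -0.62, -0.85, -0.62 and -0.85. Both genes' groups overlapped and neither passed the test (Cox6b2 -0.54, adjusted p = 0.0772; Cox6b1 0.24, adjusted p = 0.245), and the change of their ratio was 1.71-fold downward (exact permutation p = 0.0571, adjusted 0.0857). The 2 probes differ widely in brightness. With quantile normalization the differences were -0.19 for Cox6b2 and 0.18 for Cox6b1, and with cyclic loess -0.16 and 0.20. Cox7a1, the form of heart and muscle, rose 2.25-fold from 1.04, 0.21, 0.31 and 0.70 to 2.09, 1.15, 1.96 and 1.74, with no overlap (1.17, SE 0.25, limma adjusted p = 0.00909). Its widespread partner Cox7a2 was -0.46 (adjusted p = 0.0758), and the ratio of Cox7a1 to Cox7a2 rose 3.09-fold (exact permutation p = 0.0286, adjusted 0.0571). For the pair Cox4i2, the lung form of subunit 4, and Cox4i1 the change of the ratio was -0.05, and for the muscle form Cox6a2 and Cox6a1 it was 0.22 (exact permutation p = 0.8 and 0.2). Those changes were smaller than the spread of the ratio within the wild type, 0.27 and 0.24 (SD, n = 4).

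**Figure D1:**
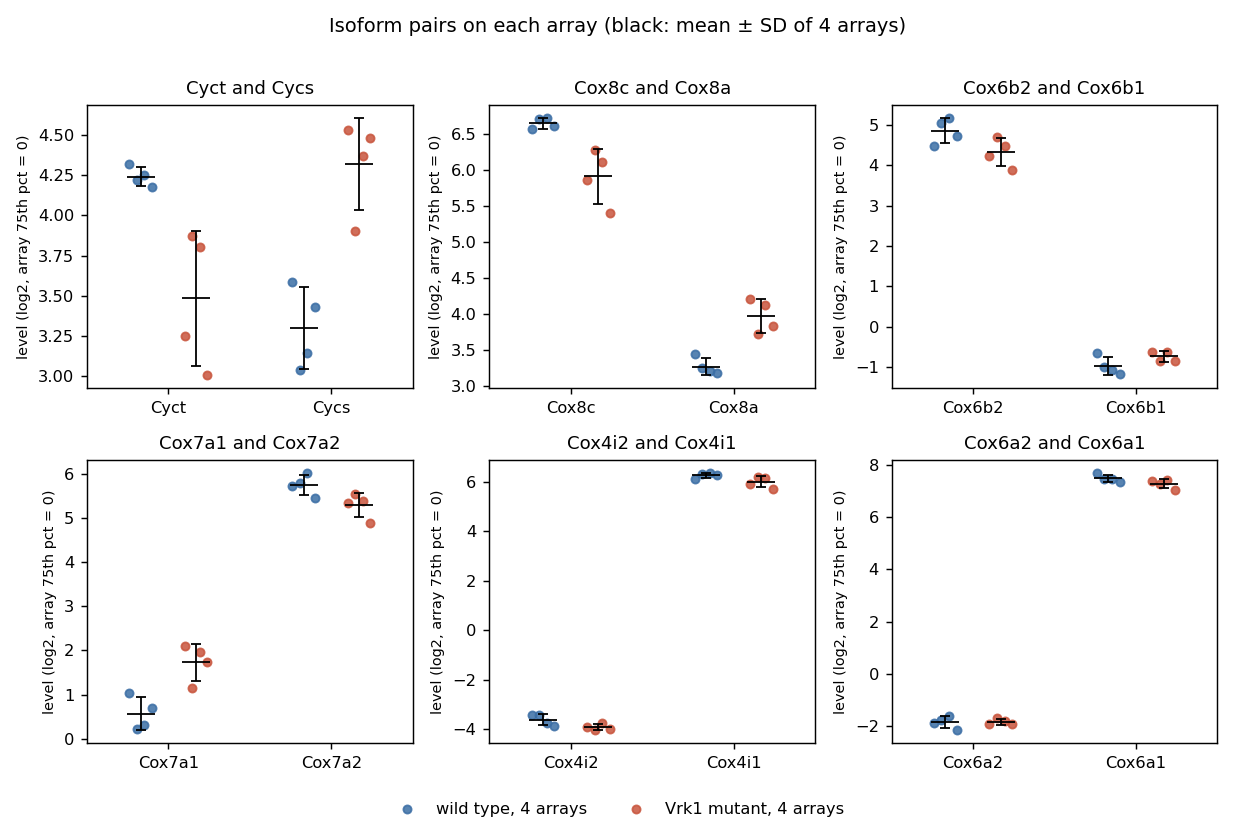
Level of each isoform on every array (log2, relative to the array's 75th percentile; 4 wild type arrays in blue, 4 mutant arrays in red, black lines mean ± SD) for the 6 pairs. Cyct and Cox8c lie lower and Cycs, Cox8a and Cox7a1 higher on all mutant arrays, while the points of Cox6b2, Cox6b1, Cox4i1, Cox4i2, Cox6a1, Cox6a2 and Cox7a2 overlap between genotypes; the vertical scales differ between panels.

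Over all 84 genes, 5 were higher and 8 lower in the mutants at a limma adjusted p below 0.05, and 71 were not called. Among all 23349 genes tested the same way, 21.7% were higher and 12.4% lower. The 5 higher genes were Cycs, Cox8a, Cox7a1, Cox7b and Ndufb11, and the 8 lower ones Cyct, Cox8c, Cox5a, Atp5b, Ndufa12, Ndufa9, Ndufa8 and Ndufs6. Of the 112 probes 8 were higher and 10 lower, against 21.2% and 10.8% of all kept probes, and 7 and 22 did not overlap, against 21.6% and 13.8%. At the level of genes, the groups did not overlap for 5 members upward and 18 downward, against 21.9% and 15.4% of all genes. The median difference of the members was -0.25 against 0.03 for all genes, with 61 members below 0 and 23 above, but quantile normalization gave 0.049 and cyclic loess 0.097, and under each of them only Cox4i2 was called lower. Scaling to the array median moved the median of all genes to -0.18 and normexp to -0.22, and the members' median to -0.46 and -0.22. The number of lower members was not stable to single arrays: it was 2 without wild type 2, 2 without wild type 3, 1 without mutant 1, 2 without mutant 3 and 2 without mutant 4.

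The members are bright genes, and on these arrays the difference went down with brightness. Between the quartiles of the members' mean level, 2.46 and 5.30, the 2697 other genes had a median difference of -0.40, 6.67% of them were higher and 32.6% lower. Against these, the 5 and 8 of 84 members stand beside a background with more lower calls. At levels from 2 to 4 the median was -0.36 over 2673 genes and -0.22 over 27 members, and from 4 to 6 it was -0.45 over 1096 genes and -0.33 over 33 members. Spearman's rho of level and difference was -0.43 over the 84 members and -0.45 over all genes, across genes of the same 8 arrays, which are not independent. What part brightness has in the members' downward median was not tested.

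**Figure D2:**
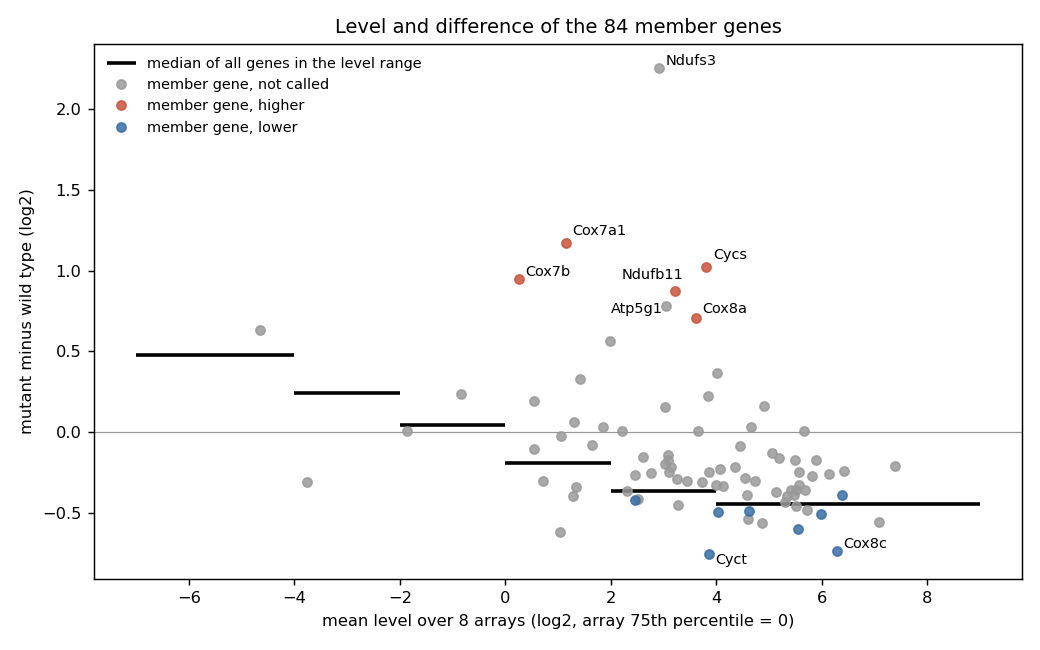
Mean level over 8 arrays against the difference mutant minus wild type (both log2) for the 84 genes, coloured by call, with black lines for the median of all genes in each range of levels. The median of the members was -0.22 at levels of 2 to 4 and -0.33 at 4 to 6, above the black lines at -0.36 and -0.45; Cycs, Cox7a1, Cox7b, Ndufb11 and Cox8a lie far above, Cyct lies below, and the uncalled Ndufs3 and Atp5g1 are each set by 1 wild type array.

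Complex I, the entry point for NADH, had 1 higher, 4 lower and 31 uncalled genes. Calls by complex stand beside 21.7% higher and 12.4% lower among all genes. Among other genes of the members' brightness the shares were 6.67% and 32.6%. The median difference of complex I was -0.30 and became -0.0095 with quantile normalization and 0.028 with cyclic loess. Ndufb11, an X-linked accessory subunit, rose from 3.01, 2.46, 2.73 and 2.88 to 3.82, 3.27, 3.79 and 3.68. All mutants were above all wild type arrays (0.87, SE 0.18, 1.83-fold, limma adjusted p = 0.00764). Ndufa12, an accessory subunit of the arm that faces the matrix, fell from 5.86, 5.98, 5.94 and 5.61 to 5.26, 5.52, 5.36 and 4.86, and mutant 4 was the lowest (-0.60, SE 0.17, adjusted p = 0.0262). All 3 Ndufa12 probes passed the test, the other ones at -0.56 and -0.73. Ndufa9, an accessory subunit at the junction of the matrix and membrane arms, fell from 4.90, 4.82, 4.78 and 4.93 to 4.33, 4.56, 4.51 and 4.07, without overlap (-0.49, SE 0.14, adjusted p = 0.0292). Both lower calls were lost in 5 of the 8 fits that left out 1 array, with the highest adjusted p at 0.0680 for Ndufa12 and 0.0678 for Ndufa9. The other 2 lower genes, named after their values were seen, were Ndufa8 (-0.42, adjusted p = 0.0453) and Ndufs6 (-0.49, adjusted p = 0.0471). In the fits that left out 1 array, Ndufa8 kept its call only without wild type 1. Ndufs6 kept its call there only without wild type 1 or mutant 2, and its other probes, at -0.42 and -0.41, were not called.

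The core subunits of complex I named here did not pass the test. Ndufv1, which carries the NADH-binding site, had levels of 4.86, 4.81, 4.84 and 5.02 in the wild type and 4.44, 4.73, 4.74 and 4.41 in the mutants. The groups did not overlap, but mutant 3 lay close to wild type 2 (-0.30, SE 0.14, adjusted p = 0.110). Ndufs1, the largest iron-sulfur subunit, was -0.33 (SE 0.18, adjusted p = 0.165). Its wild type 4 was the highest array, at 4.60, and the groups overlapped. Ndufs3, another core subunit, shows the effect of a single array and was chosen after its values were seen. Its wild type array 1 sat at the lower limit set for intensities (-6.12) while the other wild type arrays were at 4.36, 4.62 and 4.30, which made its fitted difference 2.25 (SE 2.08, adjusted p = 0.413), but -0.38 without that array. Ndufb3 lacked wild type 1 and Ndufa13 lacked mutant 4, where the spots were set aside as outliers. Both are named for this after their values were seen, and their differences of -0.14 and -0.24 rest on 7 arrays.

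Ndufb8, a membrane-arm subunit named after its values were seen, was read differently by its probes. The bright one was -0.48 with groups that did not overlap (adjusted p = 0.0501, not called), and the dim one 0.95 (adjusted p = 0.0166, called higher) with overlapping groups. The dim probe was annotated to a cDNA clone and not to the reference transcript, and it turned to -0.14 with normexp background correction. Among all 34 pairs of kept probes for one gene, 27 had the same sign and the median gap was 0.14. The 7 pairs whose probes shared a run of at least 30 bases read nearly the same RNA stretch and differed by 0.168 at most.

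**Figure D3:**
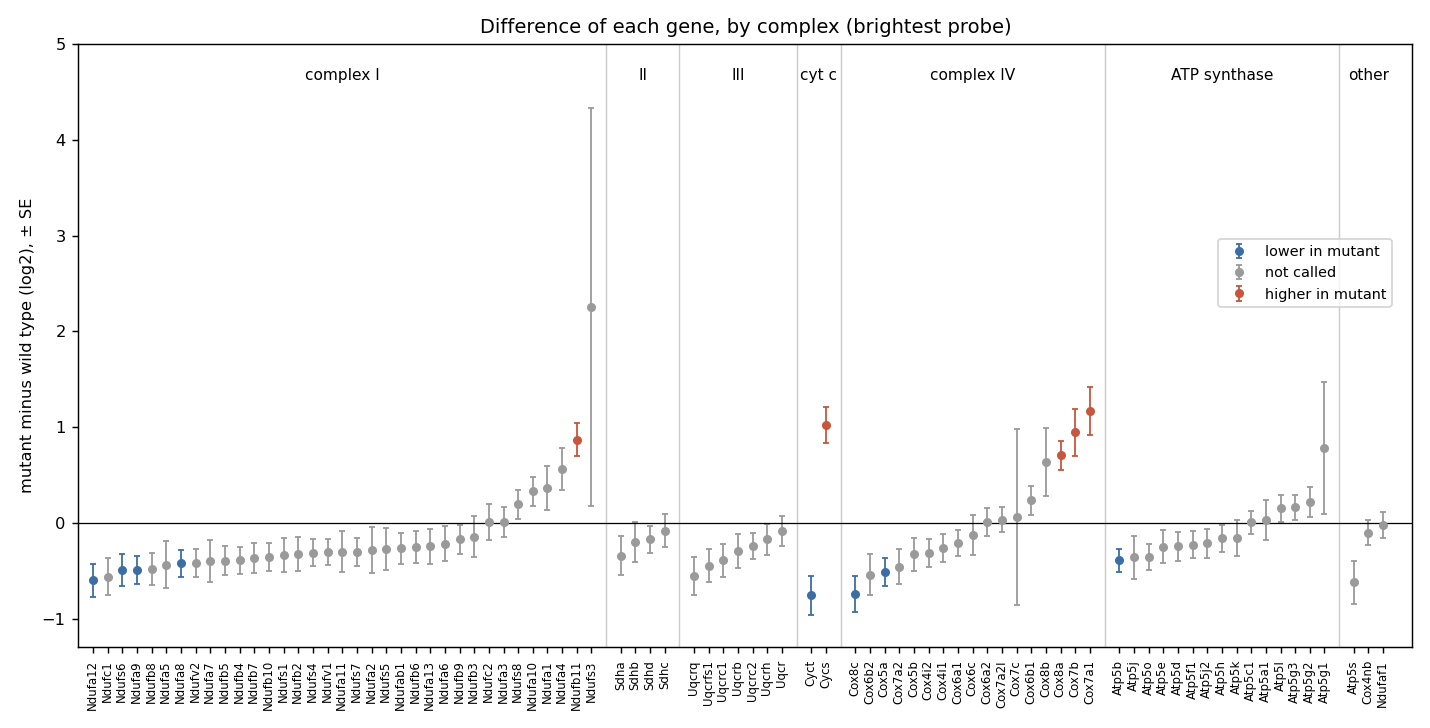
Difference mutant minus wild type (log2, ± SE from limma, 4 arrays each) of 83 of the 84 genes, grouped by complex and sorted within it; red points were called higher, blue lower, grey not called. Most points of complexes I, II, III and IV and of ATP synthase lie below 0 under the 75th percentile scaling drawn. Complexes I and IV and cytochrome c hold called genes on both sides. The wide bars of Ndufs3 and Atp5g1 come from wild type 1, far below the others, and that of Cox7c from wild type 1 and mutant 1.

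None of the 4 genes of complex II, succinate dehydrogenase, was called, with a median of -0.18 that turned to 0.047 with quantile normalization and 0.096 with cyclic loess. Sdha, the flavoprotein that oxidises succinate, had levels of 1.30, 1.35, 1.36 and 2.04 in the wild type and 0.80, 1.22, 1.23 and 1.44 in the mutants. Wild type 4 stood apart and the groups overlapped (-0.34, SE 0.21, limma adjusted p = 0.217), and the second probe of Sdha gave 0.28. Sdhb, the iron-sulfur subunit, was -0.20 (SE 0.21), and the membrane anchors Sdhc and Sdhd were -0.08 (SE 0.17) and -0.17 (SE 0.14).

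None of the 7 genes of complex III, which passes electrons from quinol to cytochrome c, was called. All 7 were below 0 with a median of -0.29, but 4 of them with quantile normalization (median -0.013), 2 with cyclic loess (0.050) and 6 with normexp (-0.34). Uqcrq, a small subunit next to cytochrome b, had levels of 7.45, 7.40, 7.50 and 7.08 in the wild type and 6.87, 7.11, 6.97 and 6.27 in the mutants. Only mutant 2 reached the lowest wild type array (-0.55, SE 0.20, adjusted p = 0.0560). Uqcrfs1, the Rieske iron-sulfur protein, was 3.21, 3.29, 3.50 and 3.95 in the wild type and 3.03, 3.04, 3.05 and 3.05 in the mutants, without overlap (-0.45, SE 0.17, adjusted p = 0.0695). The SD of the mutant values of Uqcrfs1 was 0.01, while wild type 4 was high. The core proteins Uqcrc1 and Uqcrc2 were -0.39 (SE 0.17) and -0.24 (SE 0.14), neither of them called.

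Complex IV, cytochrome c oxidase, held 3 higher, 2 lower and 12 uncalled genes, against 21.7% higher and 12.4% lower among all genes. Its median of -0.13 turned to 0.15 with quantile normalization and 0.22 with cyclic loess. Beside the isoforms described above, Cox7b, an X-linked subunit of the membrane part, rose from 0.21, -0.35, -0.22 and -0.51 to 1.21, 0.40, 1.01 and 0.29. The groups did not overlap, and mutant 4 lay closest to wild type 1 (0.95, SE 0.24, 1.93-fold, limma adjusted p = 0.0181). This call was lost without mutant 3 (adjusted p = 0.0555). Cox5a, a subunit on the matrix side named after its values were seen, was lower (-0.51, SE 0.15, adjusted p = 0.0271). Its call held without wild type 1, wild type 4 or mutant 2 and was lost without any other single array. It was also lost with spike-in scaling, quantile normalization, cyclic loess and normexp. Cox4i1, the widespread regulatory subunit 4, was -0.26 (SE 0.15, adjusted p = 0.185) and Cox6a1 -0.21 (SE 0.14, adjusted p = 0.262). Cox7c, also chosen after its values were seen, gave 0.06 with an SE of 0.92, since wild type 1 was at -1.21 and mutant 1 at -0.99 against group medians of 1.85 and 1.99.

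ATP synthase had 1 lower and 14 uncalled genes, against 21.7% higher and 12.4% lower among all genes. Of its 15 genes 9 were below 0, with a median of -0.16. All 15 were above 0 with quantile normalization (median 0.13) and cyclic loess (0.20). Atp5b, the catalytic beta subunit, fell from 6.53, 6.61, 6.58 and 6.55 to 6.24, 6.20, 6.21 and 6.06. The arrays of each genotype lay close together and the groups were apart (-0.39, SE 0.12, 1.31-fold, limma adjusted p = 0.0309). The call was lost in 5 of 8 fits without 1 array, its other probes gave -0.20 and -0.03, and the difference turned to 0.012 with quantile normalization and 0.11 with cyclic loess. Atp5o, the stalk subunit that joins the head to the membrane part, fell short of the threshold (-0.36, SE 0.14, adjusted p = 0.0679), as did Atp5d of the central stalk (-0.24, SE 0.15, adjusted p = 0.222).

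Atp5g1, Atp5g2 and Atp5g3 encode the same mature c subunit of the rotor ring and differ in their import sequences. Atp5g3 was 0.16 (SE 0.13, adjusted p = 0.344) and Atp5g2 0.22 (SE 0.16, adjusted p = 0.300), the latter without mutant 4, whose spots were set aside as outliers. Atp5g1 had wild type levels of 0.07, 3.54, 3.65 and 3.38 and mutant levels of 3.57, 3.43, 3.42 and 3.35. Its difference of 0.78 (SE 0.69, adjusted p = 0.393) became -0.08 without wild type 1.

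The members on the X chromosome were Ndufa1, Ndufb11 and Cox7b, of which 2 were called higher and none lower. Ndufa1, a small membrane-arm subunit, was 3.89, 3.99, 3.88 and 3.53 in the wild type and 4.41, 4.24, 4.57 and 3.52 in the mutants. Mutants 1 to 3 were above every wild type array and mutant 4 was at the level of wild type 4 (0.36, SE 0.23, limma adjusted p = 0.233). Ndufa1 passed the test with quantile normalization (0.69, adjusted p = 0.0376) and cyclic loess (0.71, adjusted p = 0.0286). Among all 830 X-linked genes, 43.7% were higher and 3.98% lower, with a median of 0.45 against 0.03 for all genes. With normexp background correction the X-linked median was -0.04, against -0.22 for all genes. The isoform pairs and X-linked members hold all 5 genes called higher, so leaving them out leaves no higher call among the other 69 members. Of these 69, 6 were called lower, against 12.4% of all genes and 32.6% of other genes of the members' brightness. Their median was -0.25.

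The arrays did not contribute alike. Of the 5 higher genes, mutant 1 had the highest value in all 5 and mutant 2 the lowest mutant value in 4. Of the 8 lower genes, mutant 4 had the lowest value in 7 and mutant 2 the value nearest the wild type in 6. The Sertoli marker sum was highest in mutant 1, at 203, and lowest among the mutants in mutant 2, at 132. The macrophage sum was 26.7 in mutant 1 and lowest among the mutants in mutant 2, at 9.44. The Leydig sum was 239 in mutant 1 and 152 in mutant 2, but lowest among the mutants in mutant 4, at 139. That sum leans on Insl3, the brightest Leydig marker, at 7.65, 6.97, 7.17 and 6.55 in mutants 1 to 4. Among the mutants, Cyp17a1, Cyp11a1 and Star were instead highest in mutant 4, at 4.44, 2.97 and 1.99, and Hsd3b1 in mutant 3. The spermatocyte and spermatid marker sum was lowest in mutant 4, at 377, and highest among the mutants in mutant 2, at 490. The part of these cell types in the members' differences was not tested. Without mutants 1 and 4, the arrays with the most epididymal RNA, no member was called in either direction, where limma called 4.06% of all genes higher and 0.784% lower. At an unadjusted limma p below 0.05 there were then 7 higher and 4 lower members. The share of all genes at that threshold was not taken, so these counts have no background to be read against. The differences were then 0.83 for Cycs, -0.40 for Cyct, 0.66 for Cox8a, -0.46 for Cox8c, 0.99 for Cox7a1, 0.92 for Cox7b and 0.76 for Ndufb11, in the same directions as with all arrays, and the change of Cyct minus Cycs was -1.24.

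**Figure D4:**
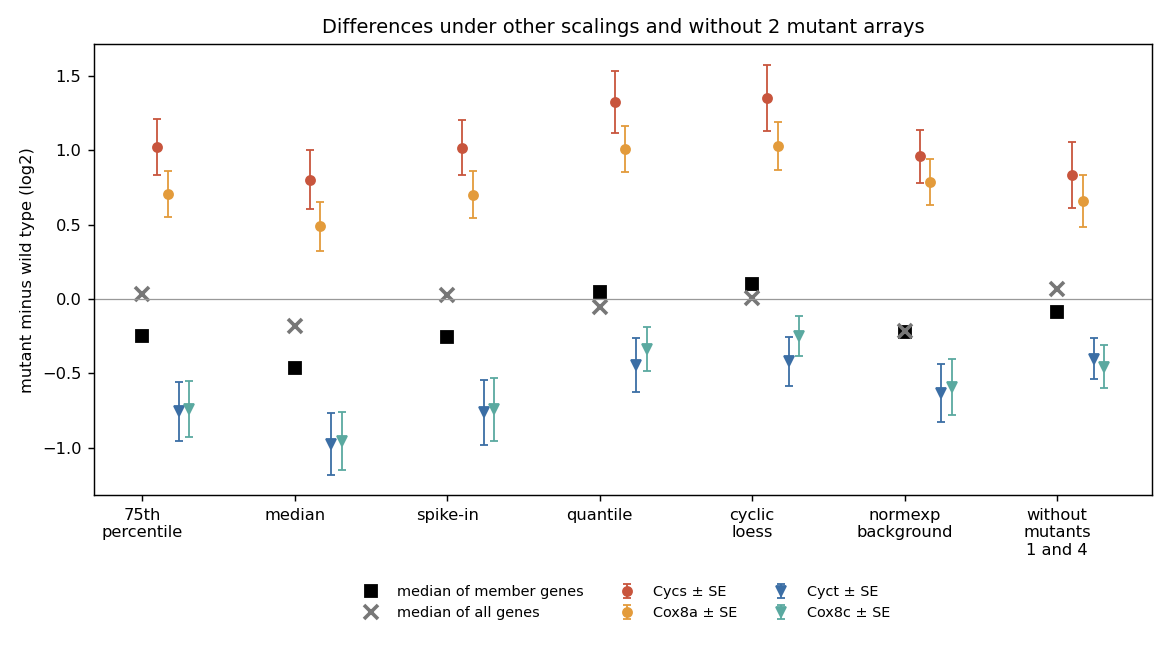
Difference mutant minus wild type (log2; ± SE from limma for single genes) under 6 normalizations and without mutants 1 and 4, for the medians of the 84 members and of all genes and for Cycs, Cox8a, Cyct and Cox8c. Cycs and Cox8a stay above 0 and Cyct and Cox8c below 0 in all 7 settings drawn, while the members' median crosses 0 with quantile normalization (0.049) and cyclic loess (0.097).

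Promoter sequences were read because many genes of the respiratory chain are known targets of nuclear respiratory factor 1 (NRF1), which binds a palindromic GC-rich site. All 84 genes were matched to RefSeq genes and 69 had an entry in the promoter table, with 74 promoters of 250 bases before to 50 bases after the start. The core of its motif, GCGCA and GCGC with 1 base of any kind between them, was found on either strand in 18 of these 74 promoters (24.3%) and in 1512 of all 32851 promoters (4.60%). A shorter form, GCATGCGC, overlapping the longer motif in part and chosen after the promoters were seen, was found in 11 of 74 (14.9%) and in 2.71% of all. The cAMP response element, TGACGTCA, also chosen after the promoters were seen, was found in 5 of 74 (6.76%) and in 1.79% of all. The 17 member genes with the longer motif had a median difference of -0.27, with 0 higher and 2 lower, and the 52 without it -0.24, with 5 higher and 5 lower. Among all genes 21.7% were higher and 12.4% lower. Whether the motif goes with the differences was not tested. The stretches from 150 bases before the start up to the start are given for Cycs, which rose, for Ndufa8 and Ndufs6, the 2 lower genes with the longer motif, and for Cyct, in which none of these motifs was found. They are 5′ to 3′ on the gene's strand, RefSeq GRCm38.p6, with matches to any of these motifs in capitals. The Cycs promoter also holds the cAMP response element, in a part of the window outside the stretch shown.
Cycs (chr6:50566570-50566719, minus strand): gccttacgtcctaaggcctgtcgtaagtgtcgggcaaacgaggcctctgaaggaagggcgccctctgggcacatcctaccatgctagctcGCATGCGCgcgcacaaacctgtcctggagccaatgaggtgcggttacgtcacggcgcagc
Ndufa8 (chr2:36049339-36049488, minus strand): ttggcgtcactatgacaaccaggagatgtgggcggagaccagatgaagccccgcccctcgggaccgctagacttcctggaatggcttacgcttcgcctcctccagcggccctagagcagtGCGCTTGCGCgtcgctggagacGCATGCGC
Ndufs6 (chr13:73328483-73328632, minus strand): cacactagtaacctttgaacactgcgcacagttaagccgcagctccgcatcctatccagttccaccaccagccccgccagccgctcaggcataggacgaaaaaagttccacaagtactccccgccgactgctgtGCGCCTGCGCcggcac
Cyct (chr2:76360454-76360603, minus strand): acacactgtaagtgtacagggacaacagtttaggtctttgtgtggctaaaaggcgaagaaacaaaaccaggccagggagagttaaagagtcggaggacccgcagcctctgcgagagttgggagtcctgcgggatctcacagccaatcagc
A match is a run of letters in this window and was not tested for binding.

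Related genes outside the subunits were taken from 3 lists, whose counts stand beside 21.7% higher and 12.4% lower among all genes. Of 17 measured assembly factors, out of 25 listed, 3 were higher and 2 lower, with a median of -0.04. Cox11, a copper chaperone for complex IV, fell (-0.61, limma adjusted p = 0.00810), and Cox15, which makes heme A for the same complex, rose (0.55, adjusted p = 0.0255). The others that passed, named after their values were seen, were Surf1 (0.43), Oxa1l (0.50) and Atpaf2 (-0.65). Of 12 regulators of mitochondrial biogenesis 1 was higher and 3 lower, with a median of -0.30. Polg2, the accessory subunit of the mitochondrial DNA polymerase, was higher (0.63) and Esrra, a nuclear receptor that drives respiratory genes, lower (-0.51). Polg (-0.57) and Polrmt (-0.51), the polymerases for mitochondrial DNA and RNA, were also lower and were named after their values were seen. Of 15 measured genes of the citric acid cycle and pyruvate dehydrogenase 3 were higher and 2 lower, with a median of -0.27. Suclg2, a subunit of succinyl-CoA synthetase, was higher (0.62). Idh3g of isocitrate dehydrogenase was higher (0.66) and Pdhb of pyruvate dehydrogenase lower (-0.44), both named after their values were seen. Pdha2, the testis form of the pyruvate dehydrogenase E1 alpha subunit, had levels of 3.91, 4.17, 4.16 and 3.99 in the wild type and 3.29, 3.49, 3.37 and 3.01 in the mutants (-0.77, adjusted p = 0.00616). Its X-linked widespread form Pdha1, named after its values were seen, had -2.27, -2.66, -2.52 and -2.26 in the wild type and -1.91, -2.16, -1.87 and -1.73 in the mutants (0.51, adjusted p = 0.0310). Neither gene's groups overlapped, Pdha2 lying below and Pdha1 above in every mutant.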

How the data were processed

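Total RNA of 8 samples of whole testicular cells was hybridised to 1-colour mouse arrays, 4 per genotype. Per the file headers and the submitters' processing notes, the deposited intensity of each spot is the processed signal of Agilent Feature Extraction 9.5.3.1, background-subtracted by the scanner software. The deposited value table held the same intensities. Each array was divided by the 75th percentile of its non-control signals (680 to 790 in the wild type, 928 to 1124 in the mutants), limited below at 0.01437 of that percentile and put on the log2 scale. Outlier spots were left out, spots of a probe were averaged, and 33717 of 41174 probes that were well above background on at least 4 of 8 arrays, with at least 3 values per genotype, were kept. No spot was saturated. Precision is limited by the number of arrays.

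Genotypes were compared with limma 3.58.1 (R 4.3.3, lmFit and eBayes, all 8 arrays, no covariate), with Benjamini-Hochberg adjustment over all kept probes and a threshold of 0.05. Each gene was read from its brightest kept probe. Isoform pairs were compared with exact two-sided permutation tests. Alternatives were other scalings and background correction, filters, probe rules, limma options, a replicate block and arrays left out. The members, lists and tests were chosen with earlier results of these data known. The genes named were the isoform pairs, the catalytic and core subunits listed for each complex, the X-linked members, the members called higher, and the 3 smallest p-values in complexes I, III, IV and ATP synthase, and in other lists the 2 smallest, and genes outside this rule are said to have been named after their values were seen. Gene names are those of the array design, with 4 of the 84 members renamed since. The values of 1 member are counted in the totals but are not reported here.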

Additional observations from a re-analysis of the deposited data

Results flagged for a closer look

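In 3 of 68 groups of 4 arrays, 1 array stood apart from the others by Dixon's criterion, where chance gives about 1 in 20. Atp5d, of the ATP synthase stalk, had its lowest wild type value of 3.06 in wild type 4, with the nearest array at 3.27. Atp5g1, a gene for the c subunit of ATP synthase, was at 0.07 in wild type 1, with the nearest array at 3.38. Sdha, the flavoprotein of complex II, was at 2.04 in wild type 4, with the nearest array at 1.36. None of these genes was called.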

How the results depend on the processing

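Of 747 values of the 34 genes chosen by rule under the alternatives, 658 kept their side of the threshold, 43 lost the call, 44 gained it, and the called Atp5b turned to 0.012 (quantile) and 0.11 (cyclic loess). Signs changed in 37 of the 747, 24 of them under those 2 settings and 35 in genes not called either way. The calls of Cycs, Cox8a, Cox7a1 and Ndufb11 held under all alternatives except the one without mutants 1 and 4, and that of Cox7b failed also without mutant 3. The main counts were 5 higher and 8 lower members. The lower count was 36 with median scaling, 2 with spike-in scaling, 1 with normexp, 15 with a mean-variance trend, and 1 with either quantile normalization or cyclic loess, where 10 and 11 were higher. Array weights gave 10 higher and 23 lower. Without mutants 1 and 4 both counts were 0, the median was -0.085 and the change of Cyct minus Cycs was -1.24. The members' median of -0.25 became -0.46 with median scaling, 0.049 with quantile normalization and 0.097 with cyclic loess. Leaving out 1 array gave 4 to 7 higher, 1 to 12 lower, medians of -0.31 to -0.16 and changes of Cyct minus Cycs of -2.05 to -1.56. With the replicate number as a block 21 members were lower. Same-numbered arrays deviated together with correlations of 0.279, 0.235, 0.0903 and 0.609, against -0.334 to 0.196 for arrays of unlike number. Every array but wild type 3 correlated best with its own number. The main test did not take the numbers as pairs and so does not model what same-numbered arrays share. The causes of these changes were not tested. Of the isoforms in the pairs, Cox4i2 and Cox6a2 were the dimmest, at mean levels of -3.76 and -1.86, though well above background on every array.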
